A study of Mus musculus with 6 samples.

Results

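De novo fatty acid synthesis builds palmitate in the cytosol from acetyl-CoA, and 9 genes of it were followed across all 6 arrays of the series. They were the acetyl-CoA and acetoacetyl-CoA makers Acly, Acss2 and Aacs, the acetyl-CoA carboxylases Acaca and Acacb with their partner proteins Mid1ip1 and Thrsp, the synthase Fasn, and the NADPH-making malic enzyme Me1. The members were a list of lipogenic genes, each represented by its probe set of highest mean signal among those tied to 1 gene symbol. All 9 listed genes had such a probe set, out of 19938 genes measured.

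The samples were C2C12 myotubes, multinucleate muscle cells that a mouse myoblast line forms on differentiation, and each condition had 1 array. Plin2 siRNA cells were given 200 µM palmitate, 200 µM oleate or BSA alone for 20 h, and scrambled siRNA cells were given the same 3 treatments. Both siRNAs were used at 10 nM with a lipid transfection reagent, both fatty acids were carried on BSA, and every culture had been differentiated in low serum on coated plates, so the controls share the transfection and the BSA. Perilipin 2, encoded by Plin2, coats lipid droplets; palmitate is saturated and is itself the end product of Fasn, whereas oleate has a cis double bond and a longer chain. The values are log2 expression, and the labels do not state that the 6 cultures were separate. With 1 array per condition, a p-value here rests on departures of these 6 arrays from fitted siRNA and treatment terms, moderated over probe sets. Such a departure may be technical or a response that differs between the siRNAs. The spread between repeat cultures was not measured. Precision is limited by how few arrays there are.

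In the pathway, ATP-citrate lyase (Acly) splits exported citrate into acetyl-CoA, which acetyl-CoA carboxylase turns into malonyl-CoA, and fatty acid synthase (Fasn) joins malonyl units with NADPH into palmitate. Many of these genes are targets of the sterol regulatory element binding protein SREBP-1c, encoded by Srebf1, whose activation is restrained by unsaturated, above all polyunsaturated, fatty acids. In muscle, malonyl-CoA also blocks entry of fatty acids into mitochondria, so the muscle and liver carboxylase Acacb is better known there as a brake on oxidation than as a lipogenic enzyme.

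Promoter sequences are shown for the 4 genes whose oleate change had an unadjusted limma p under 0.05 (Acly, Acss2, Mid1ip1 and Aacs), none of which passed after adjustment, and for Fasn, the central enzyme, which did not have one. Each run is the 250 bases before the annotated start, 5′ to 3′ on the gene's strand, from RefSeq on build GRCm38.p6; capitals mark CCAAT, the nuclear factor Y box, and GGGCGG, the Sp1 box, on either strand (reverse forms ATTGG and CCGCCC), both factors being known partners of SREBP.
Acly (chr11:100528001-100528250, minus strand): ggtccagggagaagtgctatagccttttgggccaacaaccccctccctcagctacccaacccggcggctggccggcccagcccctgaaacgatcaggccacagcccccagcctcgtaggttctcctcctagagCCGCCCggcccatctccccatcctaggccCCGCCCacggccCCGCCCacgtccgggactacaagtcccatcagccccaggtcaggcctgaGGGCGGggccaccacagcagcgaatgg
Acss2 (chr2:155517793-155518042, plus strand): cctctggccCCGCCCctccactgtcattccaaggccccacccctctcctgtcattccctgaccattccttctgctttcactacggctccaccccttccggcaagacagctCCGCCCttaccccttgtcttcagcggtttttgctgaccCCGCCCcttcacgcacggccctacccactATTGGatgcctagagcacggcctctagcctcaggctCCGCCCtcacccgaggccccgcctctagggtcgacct
Mid1ip1 (chrX:10717115-10717364, plus strand): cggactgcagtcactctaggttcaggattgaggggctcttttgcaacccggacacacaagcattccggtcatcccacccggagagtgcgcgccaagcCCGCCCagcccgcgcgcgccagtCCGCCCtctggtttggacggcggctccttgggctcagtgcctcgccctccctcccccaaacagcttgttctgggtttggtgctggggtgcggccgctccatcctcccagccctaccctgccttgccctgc
Aacs (chr5:125475623-125475872, plus strand): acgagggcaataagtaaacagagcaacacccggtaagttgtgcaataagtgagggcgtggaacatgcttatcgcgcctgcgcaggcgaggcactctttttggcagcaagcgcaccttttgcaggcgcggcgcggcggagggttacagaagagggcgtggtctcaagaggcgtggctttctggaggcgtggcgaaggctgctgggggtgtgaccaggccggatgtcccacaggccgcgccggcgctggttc
Fasn (chr11:120824548-120824797, minus strand): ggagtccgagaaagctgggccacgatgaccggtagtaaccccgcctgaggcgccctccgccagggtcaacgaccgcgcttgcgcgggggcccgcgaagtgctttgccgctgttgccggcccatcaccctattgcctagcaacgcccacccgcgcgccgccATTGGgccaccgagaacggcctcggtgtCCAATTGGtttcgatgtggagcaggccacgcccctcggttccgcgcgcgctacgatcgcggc
GGGCGG occurred 4 times in the Acly window, 4 times in that of Acss2 and 2 times in that of Mid1ip1, and in neither the Aacs nor the Fasn window. CCAAT occurred 3 times in the Fasn window, where a pair of matches on opposite strands overlap, 1 time in that of Acss2 and in none of the other 3. All 9 genes matched the promoter table, Me1 with 2 starts, which gave 10 windows. Of all 32851 windows of this length, 33.8% held CCAAT and 32.7% held GGGCGG, against 5 and 4 of the 10 member windows. The sterol regulatory element core TCACNCCAC was found in 0 member windows and in 1.05% of all, and the E-box CACGTG in 0 member windows and in 6.02% of all. These matches describe letters in a short window and say nothing of binding.

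The knockdown could be read from Plin2 itself, at 7.45 in palmitate, 7.63 in oleate and 6.95 in BSA with Plin2 siRNA, against 10.10, 10.03 and 9.29 with scrambled siRNA. Muscle identity was checked on marker lists: the 10 myotube markers lay between 9.36 and 13.67 on every array, while the 7 adipocyte markers measured lay between 3.27 and 6.89 and the 4 hepatocyte markers between 2.81 and 4.47. The 6 myoblast markers lay between 5.85 and 10.43 and the 6 fibroblast markers between 2.48 and 11.92, so both lists overlap the myotube range. None of the adipocyte or hepatocyte markers passed the threshold in any comparison. At an unadjusted limma p under 0.05, Fabp4 was the 1 adipocyte marker with oleate and Cebpa the 1 between palmitate and oleate, and there were 0 hepatocyte markers. The arrays give no detection call, and the values carry no zero, so absence cannot be read from them.

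Among the acetyl-CoA makers, Acly was at 9.07 in palmitate, 8.68 in oleate and 8.93 in BSA with Plin2 siRNA, and at 9.13, 8.50 and 9.12 with scrambled siRNA. Both oleate arrays were the lowest of their siRNA. Acss2, which makes acetyl-CoA from acetate in the cytosol, was at 8.19, 8.05 and 8.19 in palmitate, oleate and BSA with Plin2 siRNA, against 7.97, 7.61 and 8.22 with scrambled siRNA. The scrambled oleate array was the lowest of the 6 by a wide margin. Aacs, which activates the ketone body acetoacetate for lipid synthesis, was at 7.87, 7.76 and 7.91 with Plin2 siRNA, against 8.25, 8.03 and 8.31 with scrambled siRNA, and the siRNA groups did not overlap.

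Acaca, the carboxylase that commits acetyl-CoA to fatty acid synthesis, was at 7.55 in palmitate, 7.72 in oleate and 7.63 in BSA with Plin2 siRNA, against 7.84, 7.88 and 8.06 with scrambled siRNA. Acacb, its counterpart at the outer mitochondrial membrane, was at 5.19, 5.20 and 5.32 with Plin2 siRNA, against 5.32, 5.39 and 5.67 with scrambled siRNA. For both carboxylases the 3 Plin2 siRNA arrays lay below the 3 scrambled arrays, for Acacb with almost no gap. Mid1ip1, a small protein that promotes polymerisation of acetyl-CoA carboxylase, was at 9.44, 8.91 and 9.27 with Plin2 siRNA, against 9.62, 9.23 and 9.52 with scrambled siRNA. It had the widest range of the members, 0.71, and its lowest array within each siRNA was oleate. Thrsp, a relative of Mid1ip1 best known in liver and fat, was at 4.46, 4.38 and 4.72 with Plin2 siRNA, against 4.39, 4.44 and 4.57 with scrambled siRNA, with its narrow range set by higher BSA arrays. All 6 of its values lay below the array medians of 4.94 to 5.02, and whether they stand above background was not tested.

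Fasn was at 8.41 in palmitate, 8.74 in oleate and 8.66 in BSA with Plin2 siRNA, against 8.68, 8.73 and 9.02 with scrambled siRNA. The Plin2 siRNA palmitate array was its lowest and the scrambled BSA array its highest. Me1, which makes cytosolic NADPH from malate, was at 9.91, 9.83 and 9.79 with Plin2 siRNA, against 10.16, 9.96 and 10.02 with scrambled siRNA, and the siRNA groups did not overlap. The moderated residual SD counts a response that differs between the siRNAs as spread. For a member on a single array it ran from 0.08 for Me1 to 0.14 for Thrsp. A difference between arrays has a larger spread than 1 array, so arrays that differ by that much or somewhat more cannot be ordered.

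**Figure D1:**
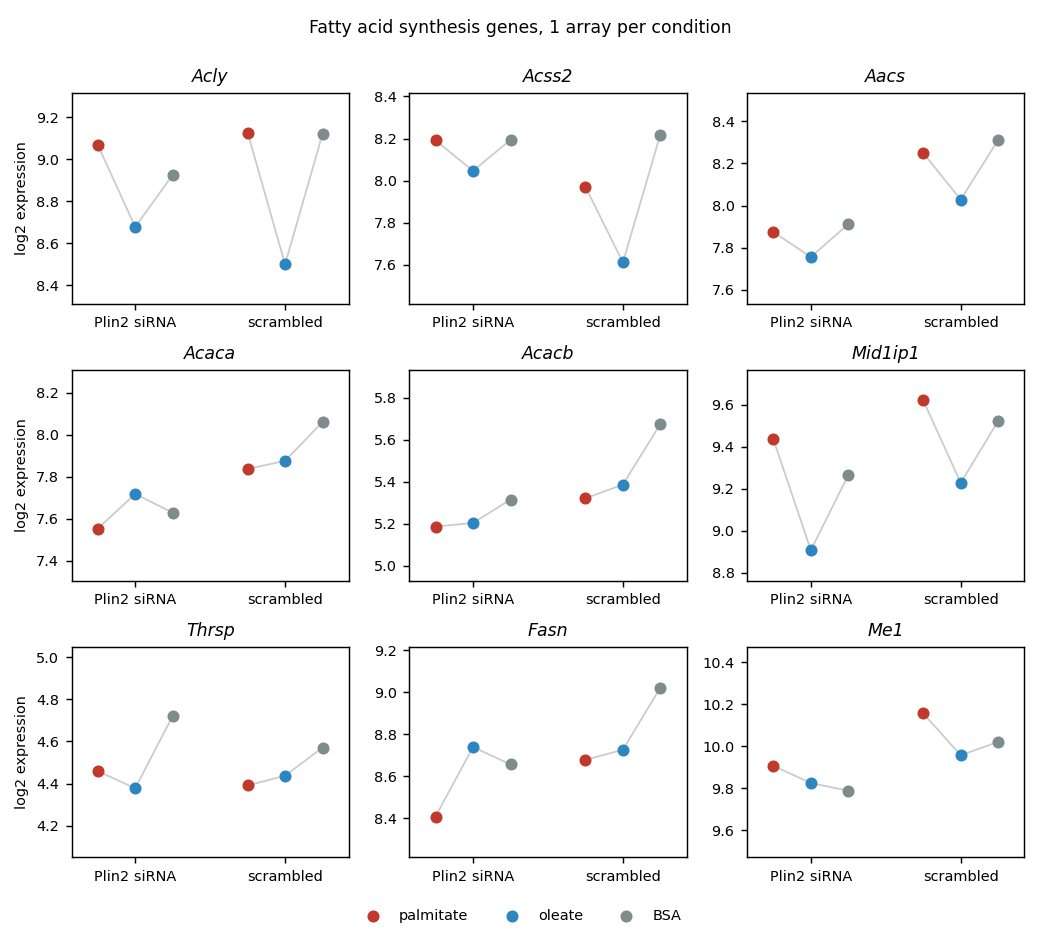
Log2 expression (vertical axis, each panel spanning the same 1 log2 unit) of the 9 genes on each of the 6 arrays, with Plin2 siRNA left of scrambled siRNA and palmitate, oleate and BSA from left to right; each point is 1 array. Oleate is the lowest point within each siRNA for Acly, Acss2, Aacs and Mid1ip1, while Aacs, Acaca, Acacb and Me1 are lower on all 3 Plin2 siRNA arrays than on all 3 scrambled arrays.

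Knockdown of Plin2 was accompanied by lower expression of 4 of the 9 genes, Aacs, Acaca, Mid1ip1 and Me1, and none was higher. Over the 3 pairs of arrays, Aacs changed by -0.35 on the log2 scale (SE 0.08, adjusted p = 0.0081 by limma), Acaca was at -0.29 (SE 0.08, adjusted p = 0.035), Mid1ip1 at -0.25 (SE 0.07, adjusted p = 0.021) and Me1 at -0.20 (SE 0.06, adjusted p = 0.044). Of all 21789 probe sets, 17.1% passed the threshold in either direction, 8.5% higher and 8.58% lower. The members' median change was -0.21, against 0.00 over all 19938 genes. Without reaching the threshold, Acacb stood at -0.23 (95% confidence interval -0.47 to 0.02), Fasn at -0.21 (-0.39 to -0.02), Acss2 at 0.21 (0.01 to 0.41), Acly at -0.03 (-0.20 to 0.15, and 0.059 without either BSA array) and Thrsp at 0.05 (-0.20 to 0.31).

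Within the 3 treatments, Aacs stood at -0.38 in palmitate, -0.27 in oleate and -0.40 in BSA, and Mid1ip1 at -0.18, -0.32 and -0.26, so both were lower in every pair. Acaca (-0.28, -0.16 and -0.43) and Me1 (-0.25, -0.13 and -0.23) were also lower in every pair, least so in oleate. Fasn stood at -0.27 in palmitate, 0.01 in oleate and -0.36 in BSA, and Acss2 at 0.22, 0.44 and -0.03. Groups that did not overlap were found for Aacs, Acaca, Acacb and Me1, all lower with Plin2 siRNA, 4 of 9 members, against 14.7% of all probe sets that did not overlap in that direction.

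All 4 were lost without either BSA array (adjusted p of 0.081 and 0.084 for Aacs, 0.31 and 0.32 for Acaca, 0.14 and 0.14 for Mid1ip1, and 0.29 and 0.29 for Me1, without the Plin2 siRNA and the scrambled BSA array in turn); without either palmitate array Acaca (0.062 and 0.064) and Me1 (0.11 and 0.12) were lost, and without either oleate array Mid1ip1 was (0.070 and 0.071) while Fasn passed at -0.32 (0.0089 and 0.0086). With the mean of its probe sets Mid1ip1 turned to 0.036 (adjusted p = 0.86), and Acaca lost its call (0.12). None of the 4 passed with all 35556 probe sets tested (Aacs 0.051, Acaca 0.12, Mid1ip1 0.077, Me1 0.11) or in an unmoderated paired test (0.20 to 0.31); Aacs alone passed without the intensity trend, and Me1 did not pass after quantile normalization (0.053) or median centring (0.076). Myotube markers moved with the siRNA as well: 6 of 10 were lower and 1 higher, against 8.58% and 8.5% of all probe sets. Their changes ran from -0.70 to 0.81, and their summed log2 level was 115.5 to 115.8 on Plin2 siRNA arrays against 116.4 to 118.9 on scrambled arrays. Of 6 myoblast markers 3 were higher and 1 lower, beside those same shares. Their changes ran from -0.62 to 1.60, with sums of 49.1 to 49.8 on Plin2 siRNA arrays against 46.3 to 47.5 on scrambled arrays. Of 6 fibroblast markers 1 was higher, against 8.5% of all probe sets (sums of 43.2 to 43.9 on Plin2 siRNA arrays against 42.7 to 43.9 on scrambled arrays). The part of these shifts in the members' values was not tested. No marker of these lists passed with a fatty acid. In RNA from whole cultures, fewer cells of a kind and less RNA per cell cannot be told apart.

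With oleate every one of the 9 fitted changes against BSA lay below 0, but none passed the threshold over all probe sets. Of all probe sets, 45% had a change above 0. Also below 0 were all 8 measured genes of citrate export and NADPH supply and 9 of 10 myotube markers, but 0 of 6 fibroblast markers. The members' median was -0.22, against -0.02 over all genes. The lowest were Acly at -0.43 (SE 0.10, 2 pairs of arrays, adjusted p = 0.25 by limma), Acss2 at -0.38 (SE 0.11, adjusted p = 0.51) and Mid1ip1 at -0.33 (SE 0.08, adjusted p = 0.33). Thrsp stood at -0.24 (SE 0.14, adjusted p = 0.85) and Aacs at -0.22 (SE 0.09, adjusted p = 0.75). By limma, 0 of 9 members were called, against 0.0734% of all probe sets, and Acly, Acss2, Mid1ip1 and Aacs had an unadjusted p under 0.05, against 6.26% of all probe sets. Acly, Acss2, Mid1ip1 and Thrsp were lower on both oleate arrays than on either BSA array, 4 of 9 members, against 16.4% of all probe sets. With the mean of its probe sets Mid1ip1 turned to 0.018. The direction for Acaca, Fasn and Me1 was not steady: their changes of -0.05, -0.11 and -0.01 turned to 0.058, 0.013 and 0.0075 without the scrambled BSA array and to 0.052, 0.059 and 0.041 without the scrambled oleate array.

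Within the siRNAs, the oleate response of Acly was -0.25 with Plin2 siRNA and -0.62 with scrambled siRNA, and that of Acss2 was -0.15 with Plin2 siRNA and -0.61 with scrambled siRNA. Mid1ip1 stood at -0.36 with Plin2 siRNA and -0.29 with scrambled siRNA, and Aacs at -0.16 with Plin2 siRNA and -0.28 with scrambled siRNA. The response of 1 gene to 1 fatty acid rests on 1 array per condition, so its difference between siRNAs has no test of its own. The nearest test available, of siRNA by any fatty acid, called 0 of 9 members (0 with an unadjusted limma p under 0.05) and 0% of all probe sets, where 2.53% had an unadjusted p under 0.05. That term was 0.35 for Acss2 (95% confidence interval -0.07 to 0.77) and 0.25 for Acly (-0.13 to 0.64). Without the Plin2 siRNA oleate array, the fitted oleate change passed the threshold for Acly (-0.59, adjusted p = 0.00081) and Acss2 (-0.55, adjusted p = 0.014), where the scrambled oleate array alone sets the oleate level.

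**Figure D2:**
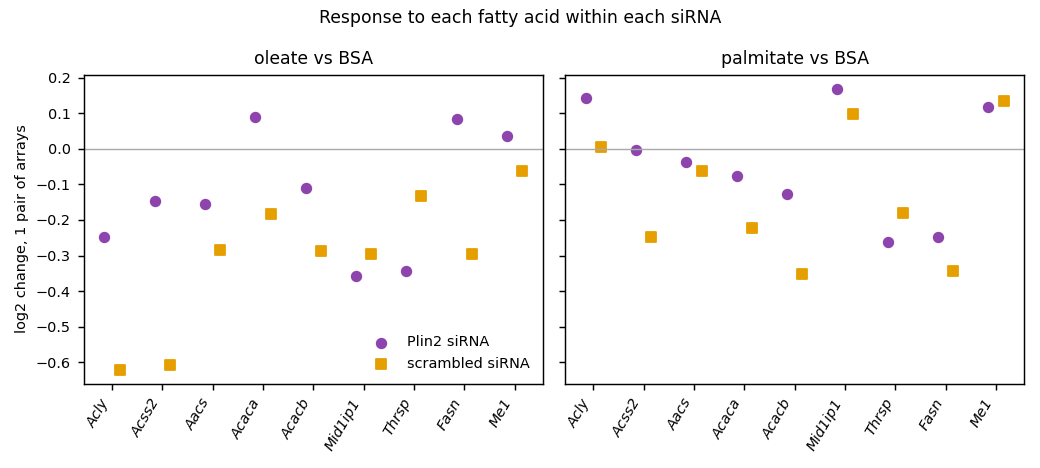
Log2 change with oleate (left) and palmitate (right) against BSA for each gene within Plin2 siRNA cells (circles) and scrambled siRNA cells (squares); each point is the difference of 1 pair of arrays. With oleate, Acly and Acss2 lie at -0.25 and -0.15 in Plin2 siRNA cells and at -0.62 and -0.61 in scrambled cells, while Mid1ip1 lies at -0.36 and -0.29.

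With palmitate the members went in both directions around BSA and none passed the threshold. Fasn had the lowest change, -0.30 (SE 0.10, 2 pairs of arrays, adjusted p = 0.89 by limma), made of -0.25 with Plin2 siRNA and -0.34 with scrambled siRNA. Acacb stood at -0.24, Thrsp at -0.22, Acaca at -0.15, Acss2 at -0.13 and Aacs at -0.05, while Mid1ip1 stood at 0.13, Me1 at 0.13 and Acly at 0.07. By limma 0 of 9 were called, against 0.00918% of all probe sets, and Fasn was the 1 member with an unadjusted p under 0.05, against 5.2% of all probe sets. The median was -0.13, against -0.01 over all genes. Acss2 and Thrsp were lower on both palmitate arrays than on either BSA array, 2 of 9 members, against 12.2% of all probe sets. For Acss2 there was almost no gap, with a change of -0.003 within Plin2 siRNA. The fitted change of Acss2 turned to 0.051 without the scrambled BSA array, and that of Acly to -0.054 without the Plin2 siRNA BSA array.

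Palmitate and oleate, both at 200 µM for 20 h, differed in Mid1ip1, which was higher with palmitate by 0.46 (SE 0.08, 2 pairs of arrays, adjusted p = 0.049 by limma). This was the 1 pair of fatty acids compared, with p adjusted over all probe sets, of which 0.262% passed in either direction and 0.142% were higher with palmitate. Acly had a larger difference, 0.51 (SE 0.10, adjusted p = 0.082), and both genes were higher on each palmitate array than on either oleate array, as were 15.9% of all probe sets. Acss2 stood at 0.25 (95% confidence interval 0.00 to 0.50), Aacs at 0.17 (-0.03 to 0.38) and Me1 at 0.14 (-0.03 to 0.31). Of the remaining members, Fasn was at -0.19 (-0.41 to 0.04), Acaca at -0.10 (-0.33 to 0.12), Acacb at -0.04 (-0.34 to 0.26) and Thrsp at 0.02 (-0.29 to 0.33), none past the threshold. Fasn was lower on both palmitate arrays than on either oleate array, as were 11.1% of all probe sets. These comparisons use the same oleate arrays as the comparison of oleate with BSA and are not independent of it.

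The difference for Mid1ip1 lay between 0.41 and 0.51 when arrays were left out in turn, and the call was lost without the Plin2 siRNA palmitate (adjusted p = 0.057), Plin2 siRNA BSA (0.056), scrambled palmitate (0.11) or scrambled BSA array (0.057), as well as after quantile normalization (0.061) or median centring (0.16), without the trend (0.45), with all probe sets tested (0.53), on the 4 palmitate and oleate arrays alone (0.057) or with the mean of its probe sets (0.22, adjusted p = 0.52). Acly passed on those 4 arrays (0.042), without the dimmest probe sets (0.044), and without the Plin2 siRNA oleate (0.66, adjusted p = 3.7e-05), Plin2 siRNA BSA (0.041) or scrambled BSA array (0.043). The sign for Thrsp turned to -0.027 after quantile normalization and -0.0089 after median centring, and that for Acacb to 0.027 without the scrambled palmitate array.

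**Figure D3:**
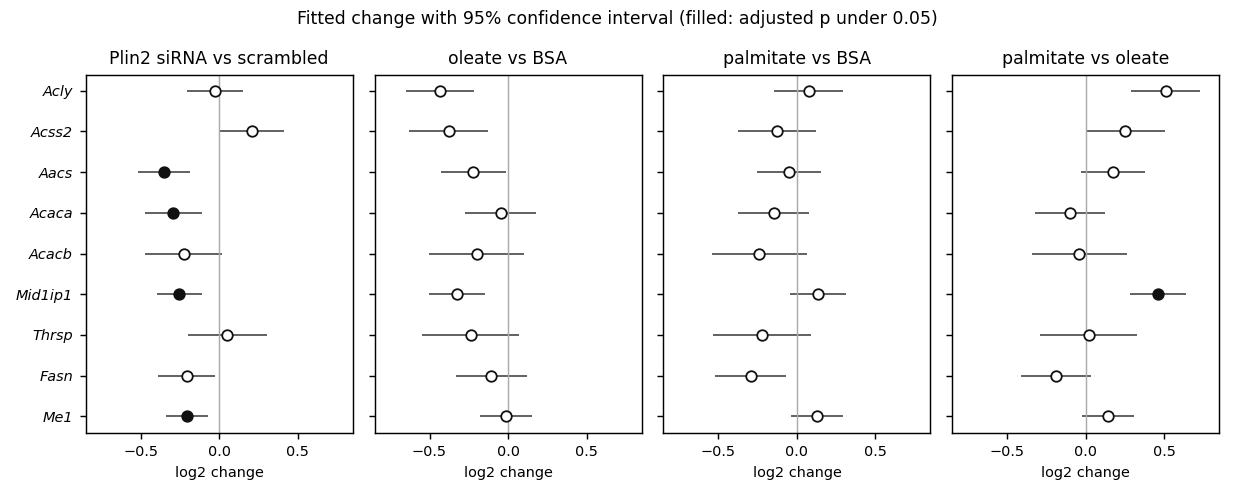
Fitted log2 change of each gene (points) with its 95% confidence interval (lines) in 4 comparisons, with filled points for an adjusted p under 0.05. Plin2 siRNA against scrambled siRNA has 4 filled points, all below 0, and palmitate against oleate has 1, Mid1ip1 at 0.46.

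A second probe set was tied to 3 members. For Me1 the other probe set carries the same accessions and differed from the one used by 0.03 to 0.08, with an siRNA change of -0.23 (SE 0.06, limma adjusted p = 0.028). For Acaca it stood at -0.13 with Plin2 siRNA (SE 0.10, adjusted p = 0.44), without reaching the threshold. For Mid1ip1 the other probe set is tied only to cDNA clone accessions with no RefSeq transcript, and it went the other way in 2 comparisons: 0.33 with Plin2 siRNA (SE 0.10, adjusted p = 0.053) and 0.36 with oleate (SE 0.13, adjusted p = 0.61). Its difference between palmitate and oleate was -0.01 (SE 0.13). The Mid1ip1 results therefore hold for the probe set tied to its RefSeq transcripts.

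The genes around the pathway were grouped by role, and their calls with Plin2 siRNA stand beside the 8.5% of all probe sets that were higher and the 8.58% that were lower. In citrate export and cytosolic NADPH supply, 1 of 8 measured genes rose with Plin2 siRNA and none fell: Pgd, of the pentose phosphate pathway, at 0.22 (SE 0.07, limma adjusted p = 0.0498). No gene of the group passed with either fatty acid or between them, although 2 had an unadjusted limma p under 0.05 with oleate, 3 with palmitate and 7 between the fatty acids, against 6.26%, 5.2% and 9.21% of all probe sets; the median was 0.25 between palmitate and oleate, against 0.01 over all genes. The mitochondrial citrate carrier Slc25a1, which supplies the substrate of Acly, was at 8.38 in palmitate, 8.08 in oleate and 8.30 in BSA with Plin2 siRNA, against 8.44, 7.91 and 8.19 with scrambled siRNA. As for Acly, oleate was its lowest array within each siRNA; the difference between palmitate and oleate was 0.42 (SE 0.10, adjusted p = 0.15).

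Of 11 measured transcription and SREBP-processing genes, 2 rose and 1 fell with Plin2 siRNA, and 1 fell with oleate (against 0.0413% of all probe sets). Of the same genes, 1 was higher with palmitate than with oleate (against 0.142% of all probe sets). Insig1, a sterol-regulated protein that retains SREBP in the endoplasmic reticulum, fell with Plin2 siRNA (-0.46, SE 0.08, limma adjusted p = 0.0023) and with oleate (-0.76, SE 0.10, adjusted p = 0.016), and was higher with palmitate than with oleate (1.05, SE 0.10, adjusted p = 0.0013). Its values were 10.94, 9.68 and 10.46 in palmitate, oleate and BSA with Plin2 siRNA, against 11.13, 10.29 and 11.03 with scrambled siRNA. Srebf1 was at 8.47, 8.04 and 8.46 with Plin2 siRNA, against 8.59, 8.15 and 8.79 with scrambled siRNA, with both oleate arrays below the other 4. Its change of -0.53 with oleate (SE 0.09, adjusted p = 0.098) and its difference of 0.44 between palmitate and oleate (SE 0.09, adjusted p = 0.12) did not pass. The genes that rose with Plin2 siRNA were Mlx, a partner of the carbohydrate-responsive factor (0.22, adjusted p = 0.0496), and Srebf2, the SREBP of sterol synthesis (0.20, adjusted p = 0.039). The carbohydrate-responsive factor Mlxipl stayed between 4.93 and 5.12 on the 6 arrays and the liver X receptor Nr1h3 between 5.21 and 5.34, and neither passed in any comparison.

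Of the 11 genes that act on acetyl-CoA carboxylase, ATP-citrate lyase or malonyl-CoA, 1 rose and 1 fell with Plin2 siRNA. Prkaa2, a catalytic subunit of the AMP-activated kinase that phosphorylates and inhibits both carboxylases, rose by 1.08 (SE 0.08, limma adjusted p = 6.7e-06), with 8.47, 8.48 and 8.41 on the Plin2 siRNA arrays against 7.24, 7.51 and 7.37 on the scrambled arrays. The alternative catalytic subunit, Prkaa1, was not called and stood at -0.15 (SE 0.06, adjusted p = 0.14), with its 3 Plin2 siRNA arrays at 9.98, 9.92 and 10.01 against 10.04, 10.12 and 10.20 on the scrambled arrays. Sirt2, a cytosolic deacetylase that acts on ATP-citrate lyase, fell (-0.39, SE 0.07, adjusted p = 0.0018). Mlycd, which breaks malonyl-CoA down, was not called: it stood at 0.66 with oleate (SE 0.16, adjusted p = 0.29). No gene of the group passed with a fatty acid or between them by limma. An unadjusted limma p under 0.05 was found for 1 of 11 with oleate, 0 with palmitate and 2 between palmitate and oleate. The shares of all probe sets were 6.26%, 5.2% and 9.21%, and counts this small cannot be told from them.

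A group of mitochondrial enzymes held genes of mitochondrial fatty acid synthesis, which makes the lipoate precursor, and mitochondrial malic enzymes and acyl-CoA synthetases. Of its 10 measured genes 3 were higher and none lower with Plin2 siRNA. These were the reductase subunit Cbr4 (0.64, SE 0.10, limma adjusted p = 0.0012), the mitochondrial malic enzyme Me3 (0.39, SE 0.12, adjusted p = 0.040) and the malonyl transferase Mcat (0.32, SE 0.08, adjusted p = 0.015). None of the 10 passed with either fatty acid or between them, and 0 had an unadjusted limma p under 0.05 there. The cytosolic Me1 was lower and the mitochondrial Me3 higher with the same siRNA, while the mitochondrial acetate enzyme Acss1 stood at 0.00 (SE 0.12) beside 0.21 for the cytosolic Acss2. The other mitochondrial malic enzyme, Me2, differed from Me3: it stood at 0.02 in palmitate, -0.19 in oleate and -0.12 in BSA. The related mitochondrial synthetase Acss3 stood at 0.33 (SE 0.12, limma adjusted p = 0.094), so these pairs show no common rule for the compartment.

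Genes of fatty acid elongation and desaturation were described alongside. With Plin2 siRNA 5 of 12 fell, against 8.58% of all probe sets, and 1 rose, against 8.5%: Fads2 (-0.83), Elovl5 (-0.73), Elovl7 (-0.52), Fads1 (-0.42) and Scd1 (-0.41) fell, with SEs of 0.06 to 0.11, and Hacd3 rose by 0.85. With oleate Fads2 (-0.81, SE 0.09, limma adjusted p = 0.0080) and Scd2 (-0.68, SE 0.07, adjusted p = 0.0064) fell, 2 of 12, against 0.0413% of all probe sets. Between palmitate and oleate Fads2 (1.23), Scd2 (0.74) and Scd1 (0.50) were higher with palmitate, 3 of 12, against 0.142% of all probe sets. The list median was -0.23 with Plin2 siRNA and 0.08 between palmitate and oleate, against 0.00 and 0.01 over all genes. Elovl6, the elongase that takes palmitate directly, did not pass: it stood at -0.12 with Plin2 siRNA (SE 0.08) and -0.10 between palmitate and oleate (SE 0.10).

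**Figure D4:**
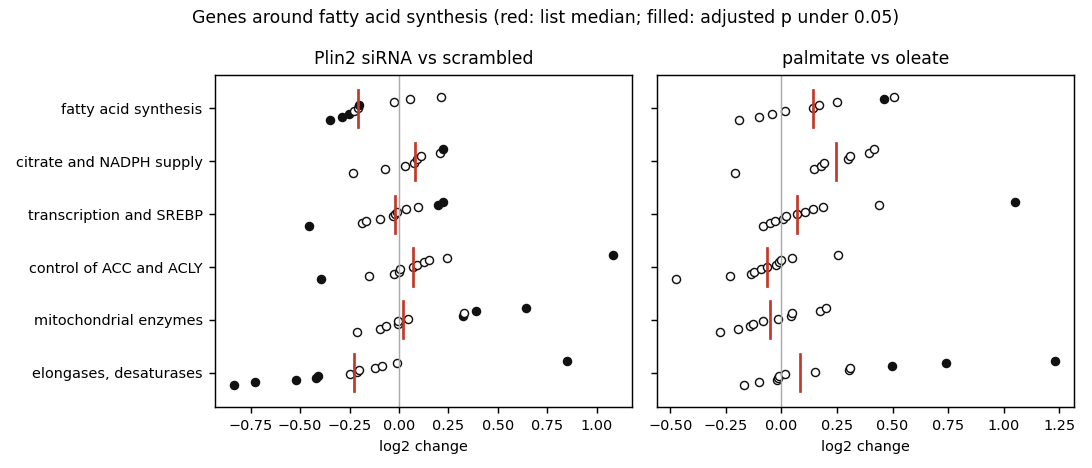
Log2 changes of the fatty acid synthesis genes and of 5 neighbouring gene groups with Plin2 siRNA against scrambled siRNA (left) and palmitate against oleate (right); each point is a gene, filled for an adjusted p under 0.05, and the red line is the group's median. The medians of fatty acid synthesis and of elongases and desaturases lie at -0.21 and -0.23 on the left, and the rightmost point on the right is Fads2 at 1.23.

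The average of the members' mean-centred values was -0.05, -0.15 and -0.02 in palmitate, oleate and BSA with Plin2 siRNA, against 0.09, -0.09 and 0.22 with scrambled siRNA. Among 5036 other genes that varied at least as much over the arrays as the median member, those most like this average over the 6 arrays were Mtmr7 (Pearson r 0.99), Heyl (0.99), Map1b (0.98), Zbtb8b (0.97) and Dnm3 (0.97). The 6 points share the siRNA and treatment layout. The members' own r with this average ran from 0.32 for Thrsp and 0.39 for Acss2 to 0.90 for Aacs, and each is part of it. The genes named above were picked for the highest r and the members were not, so their values cannot be compared.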

How the data were processed

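Log2 expression values per probe set were used as deposited; the authors made them with RMA, per the submitters' processing notes, from Affymetrix whole-transcript arrays hybridised with biotin-labelled total RNA. RMA corrects background, normalizes between arrays and summarises probes. The sources used here give neither its version nor a genome build; that the base is 2 follows from RMA and the value range. Of 35556 probe sets, 21789 were tied to 1 gene symbol by GEO's platform annotation (19938 genes), 1621 to several, and 12146 are unnamed here. Each gene is given by its probe set of highest mean, with no filter on low signal. All 9 members lie above the dimmest probe sets that one alternative removed, but Thrsp, at 4.38 to 4.72, lies below every array median. Array medians were 4.94 to 5.02.

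With 1 array per condition, limma 3.58.1 in R 4.3.3 was fitted with treatment and siRNA as terms (lmFit, eBayes with an intensity trend), with 2 residual and 9.21 prior degrees of freedom. The comparisons in that fit share 1 residual spread per probe set. It is the departure of all 6 arrays from the fitted treatment and siRNA terms, moderated over the probe sets. An siRNA change averages 3 pairs of arrays and a fatty acid change 2. An interaction of siRNA with any fatty acid had 1 residual degree of freedom. Benjamini-Hochberg adjustment ran over all 21789 named probe sets, a call needed an adjusted p below 0.05, and the adjusted values are limma's. The fit was tested on simulated data. The members and lists were chosen with earlier results of these data known. Named genes were all members, up to 4 called genes per neighbouring list and comparison, Srebf1, Mlxipl, Nr1h3 and Slc25a1, and the 5 genes most like the members' average. Elovl6, Mlycd, Prkaa1, Acss1, Acss3, Me2, Fabp4, Cebpa, and Fads1 and Scd1 with Plin2 siRNA, were chosen after their values were seen. G6pdx, Nr1h2, Mbtps2 and Hsd17b8 had no probe set tied to 1 symbol. Protein sequences were not used here.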

Additional observations from a re-analysis of the deposited data

Results flagged for a closer look

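In 3 genes the oleate response pointed one way with Plin2 siRNA and the other way with scrambled siRNA, with 1 pair of arrays each. For Fasn it was 0.08 with Plin2 siRNA and -0.29 with scrambled siRNA, a difference of 0.38. For Acaca it was 0.09 with Plin2 siRNA and -0.18 with scrambled siRNA, a difference of 0.27. For Me1 it was 0.04 with Plin2 siRNA and -0.06 with scrambled siRNA, a difference of 0.10. Between palmitate and oleate, Thrsp stood at 0.08 with Plin2 siRNA and -0.05 with scrambled siRNA, a difference of 0.13. None of these differences was tested. The moderated residual SD of a single array was 0.10 for Fasn, 0.10 for Acaca, 0.08 for Me1 and 0.14 for Thrsp. It is computed in part from these same differences, so it gives no independent yardstick for them. Each difference combines several arrays, so its own spread is larger than that of a single array.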

How the results depend on the processing

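Among the members, the 4 calls with Plin2 siRNA became 1 when variances were moderated with no trend, 0 with all 35556 probe sets tested, 0 in a paired test per gene without moderation and 2 with the mean of all probe sets of a gene, and ranged from 0 to 4 when arrays were left out in turn. The 0 calls with oleate ranged from 0 to 2 when arrays were left out. The 1 call between palmitate and oleate became 0 with no trend, all probe sets tested, quantile normalization, median centring or the mean of all probe sets, and 2 without the dimmest probe sets; leaving out arrays gave 0 to 2. For palmitate against BSA, 0 members were called under the settings tried, and for the interaction 0 under both. Over all probe sets, the 3721 calls with Plin2 siRNA became 2403 with no trend, 2159 with all tested and 0 in the unmoderated paired test, and 2213 to 3836 on leaving out an array. The 16 with oleate became 2 with no trend, 0 with all tested, 31 without the dimmest and 64 on the 4 arrays compared, and 3 to 262 on leaving out an array; their split of 7 higher and 9 lower was 7 and 5 after median centring. The 2 with palmitate became 0 with all tested and 119 on the 4 arrays compared, and 2 to 117 on leaving out an array. The 57 between palmitate and oleate became 0 with no trend, 0 with all tested, 25 after quantile normalization and 86 on the 4 arrays compared, and 30 to 538 on leaving out an array. The cause of these shifts was not tested. Averaging its probe sets turned Mid1ip1, called with Plin2 siRNA, to 0.036, and its uncalled oleate change to 0.018. The other signs that turned belonged to uncalled values. Leaving out arrays gave Acly -0.13 to 0.059 with Plin2 siRNA; with oleate it gave Acaca -0.15 to 0.058, Fasn -0.27 to 0.059 and Me1 -0.068 to 0.041; with palmitate against BSA it gave Acly -0.054 to 0.20 and Acss2 -0.30 to 0.051; and between palmitate and oleate it gave Acacb -0.11 to 0.027 and Thrsp -0.067 to 0.10. Thrsp there was also -0.027 after quantile normalization and -0.0089 after centring. Without 1 array of a treatment, its partner alone sets that treatment's level and adds nothing on the siRNA change. The labels give no replicate numbers, so none could serve as a block; the treatment term already pairs the arrays of the siRNAs. Small changes cannot be told apart with 1 array per condition and no detection call.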
